A study of Saccharomyces cerevisiae with 16 samples.

Results

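The genes described here encode proteins of the mitochondrial ribosome of the budding yeast Saccharomyces cerevisiae. They were chosen by name, as the nuclear protein-coding genes of the sacCer3 (R64) annotation whose symbol is MRPL, MRPS or RSM followed by a number. There were 54 of them among 6002 nuclear protein-coding genes. The 34 MRPL genes encode proteins of the large ribosomal subunit, and the 9 MRPS and 11 RSM genes encode proteins of the small subunit. They lay on 14 of the 16 nuclear chromosomes. Their annotated length is the span from start to stop codon, any intron included. It had a median of 706.5 bp and a range of 213 to 1887 bp, against a median of 1200 bp over all genes.

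The series measured trimethylation of lysine 4 on histone H3 (H3K4me3) by CUT&RUN, in which an antibody brings a nuclease to the chromatin it binds. The sample titles call the assay ChIP. All strains were derived from BY4741 and carried either the human HPRT1 locus as synthetic DNA (labelled synHPRT1) or its reversed sequence (synHPRT1R). The 8 H3K4me3 libraries formed 4 groups of 2: HPRT1R on a yeast artificial chromosome (YAC), HPRT1 on a YAC, HPRT1R integrated on chromosome XI and HPRT1 integrated on chromosome XI. The YAC strains grew in SC-Leu, a synthetic medium that lacks leucine, and the integrated strains in YPD, a rich medium, both at 30 °C. Configuration and medium therefore always changed together and cannot be told apart. Overnight cultures restarted at an optical density (OD) of 0.1 were taken 6 hours later, at an OD near 0.6, and 0.5 µg of antibody was used. No strain without synthetic DNA was among the libraries used here, and background signal at these genes was not measured, since the IgG samples were not analysed here. The labels of the second HPRT1 YAC library conflict, since its cell line field names the HPRT1R YAC and its other fields name HPRT1. It was kept as HPRT1. Nothing in the labels says that replicates were separate cultures, so p-values measure the spread between these libraries, which may be technical.

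Mitochondrial ribosomes translate the few proteins that mitochondrial DNA encodes, most of them subunits of the respiratory chain and of ATP synthase. In yeast their RNAs and the protein Var1 come from mitochondrial DNA, and the other proteins are encoded in the nucleus, made in the cytosol and imported. H3K4me3 is placed by the Set1 complex (COMPASS) at the beginning of transcribed genes, so the mark at these genes is a feature of nuclear chromatin.

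Each library came as a list of peaks with the authors' own fold over the peak caller's expectation. The lists held 3463 to 4049 peaks, and the median width of peaks on nuclear chromosomes was 540 to 699 bp. Read totals cannot be had from peak lists. The expected pileup recovered from each list was 76.2 to 98.9 reads, which sets the counting error behind a fold. Replicate lists shared 10 to 53 identical intervals, so no pair was the same list deposited again.

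The mitochondrial ribosomal protein genes carried H3K4me3 peaks at their starts almost without exception. A gene was called marked where a peak overlapped its start window, which began 200 bp before the annotated start and ended 500 bp after it. By this rule 49 of the 54 genes (90.7%) were marked in all 8 libraries, where 66.5% of all genes were. Another 4 were marked in 7 libraries and 1 in 6. No gene of the set was marked in no library, against 14.8% of all genes. Of the 432 combinations of gene and library, 6 lacked a peak.

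By library, HPRT1R YAC had 53 and 53 of the 54 genes marked and HPRT1 YAC had 50 and 54. All 54 were marked in each of the 4 integrated libraries. HPRT1 YAC replicate 1 stood lowest. Its list had the largest number of peaks (4049) and the smallest median width (540 bp), and it also marked the lowest share of all genes, 75.0%. Without it, 52 of the 54 genes were marked in every remaining library. Per library, 98.6% ± 2.57 of the set were marked, against 77.5% ± 1.68 of all genes (SD, n = 8).

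Genes of the other translation system of the cell gave a similar share. Among 132 cytosolic ribosomal protein genes (symbol RPL or RPS and a number), 99.4% ± 0.883 were marked per library (SD, n = 8), and 97.0% were marked in all 8. Among 35 nuclear genes for subunits of the respiratory chain and ATP synthase, 84.3% ± 4.58 were marked per library (SD, n = 8) and 71.4% in all 8.

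**Figure D1:**
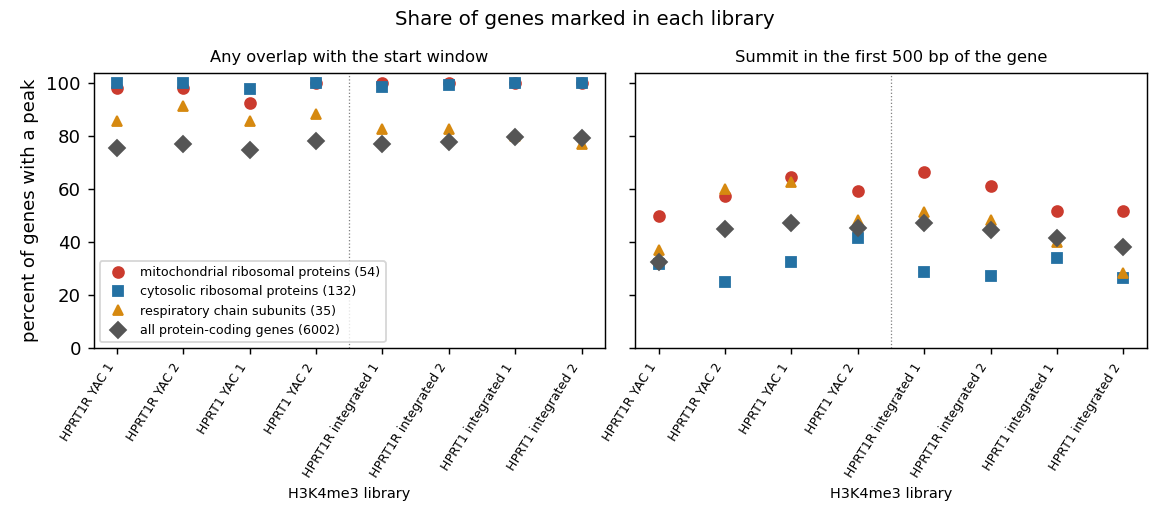
Percent of genes with a peak in each of the 8 H3K4me3 libraries (x axis: group and replicate, YAC left of the dotted line and integrated right of it), by any overlap with the start window (left panel) and by a summit in the first 500 bp of the gene (right panel). Circles stand for the 54 mitochondrial ribosomal protein genes, squares for 132 cytosolic ribosomal protein genes, triangles for 35 respiratory chain genes and diamonds for all 6002 genes. In the left panel the mitochondrial ribosomal genes lie between 92.6% and 100% and all genes between 75.0% and 79.7%.

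The share depended on the rule. Where a summit, the highest point of a peak, had to lie within the first 500 bp of the gene, 57.9% ± 6.24 of the set were marked per library, against 42.8% ± 5.09 of all genes (SD, n = 8). By that rule 12 of the 54 genes (22.2%) were marked in all 8 libraries, with a background of 16.3% of all genes. At 10 genes no library had such a summit, where the background was 33.2%. The cytosolic ribosomal protein genes had a lower share by this rule, 31.0% ± 5.36 (SD, n = 8), and the respiratory chain genes had 47.1% ± 11.5 (SD, n = 8). The plot of shares by library shows both rules side by side.

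Peaks were often shared with a neighbour. For 25 of the 54 genes the strongest peak at the start also reached over the start window of another gene in all 8 libraries, for 13 it did so in some libraries, and for 16 in none. Among genes marked in all 8 libraries the share with such a peak throughout was 51.0% of the set and 44.8% of all genes. At 39 genes the peak was on average wider than the gene, which was not counted over all genes. The upstream neighbour was transcribed away from the gene (a divergent pair) at 31 genes, or 57.4%, against 52.0% of all genes. In many of these pairs the starts were less than 300 bp apart. At MRPL51 the neighbouring frame YPR099C overlaps the gene and begins 322 bp away on the other strand. The 32 genes whose start window overlapped no other start window were marked in all 8 libraries in 28 cases (87.5%), against 61.1% of the 4311 genes of the whole genome with such a window.

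The height of a peak was described by its percentile, that is, by the rank of its fold among the nuclear peaks of its own list. The median percentile over marked genes of the set was 70.5, ranging from 62.0 to 76.4 over the 8 libraries, against 62.3 for all marked genes (61.7 to 63.1). It was 77.9 for cytosolic ribosomal protein genes and 49.1 for respiratory chain genes. Within the set, mean percentiles ran from 15.0 for MRPL10 to 99.9 for MRPL20. The mean was above 50 for 40 genes, above 90 for 6 and below 25 for 5.

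The medians of the subunits lay close together. The median of the mean percentiles was 67.0 over the 34 large subunit genes and 67.4 over the 20 small subunit genes. Over the 33 genes whose systematic protein name marks a counterpart in bacteria it was 69.6, and over the 20 whose name marks a protein without one it was 64.0. RSM22, which encodes a methyltransferase-like protein of the small subunit, had no such name in the table. By contrast the median was 79.0 over the 25 genes whose peak reached another start window in all libraries and 43.7 over the 16 where it reached none.

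The same held for divergent pairs. Genes of the set with a divergent upstream neighbour had a median percentile of 78.6 per library, against 52.9 for those with an upstream neighbour on the same strand (tandem). Over all genes the medians were 70.5 and 51.4 for the same arrangements. Among the 32 genes with a start window of their own the median was 58.9, against 56.3 for all genes with such a window. These divisions were made after the values were seen and carry no test.

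**Figure D2:**
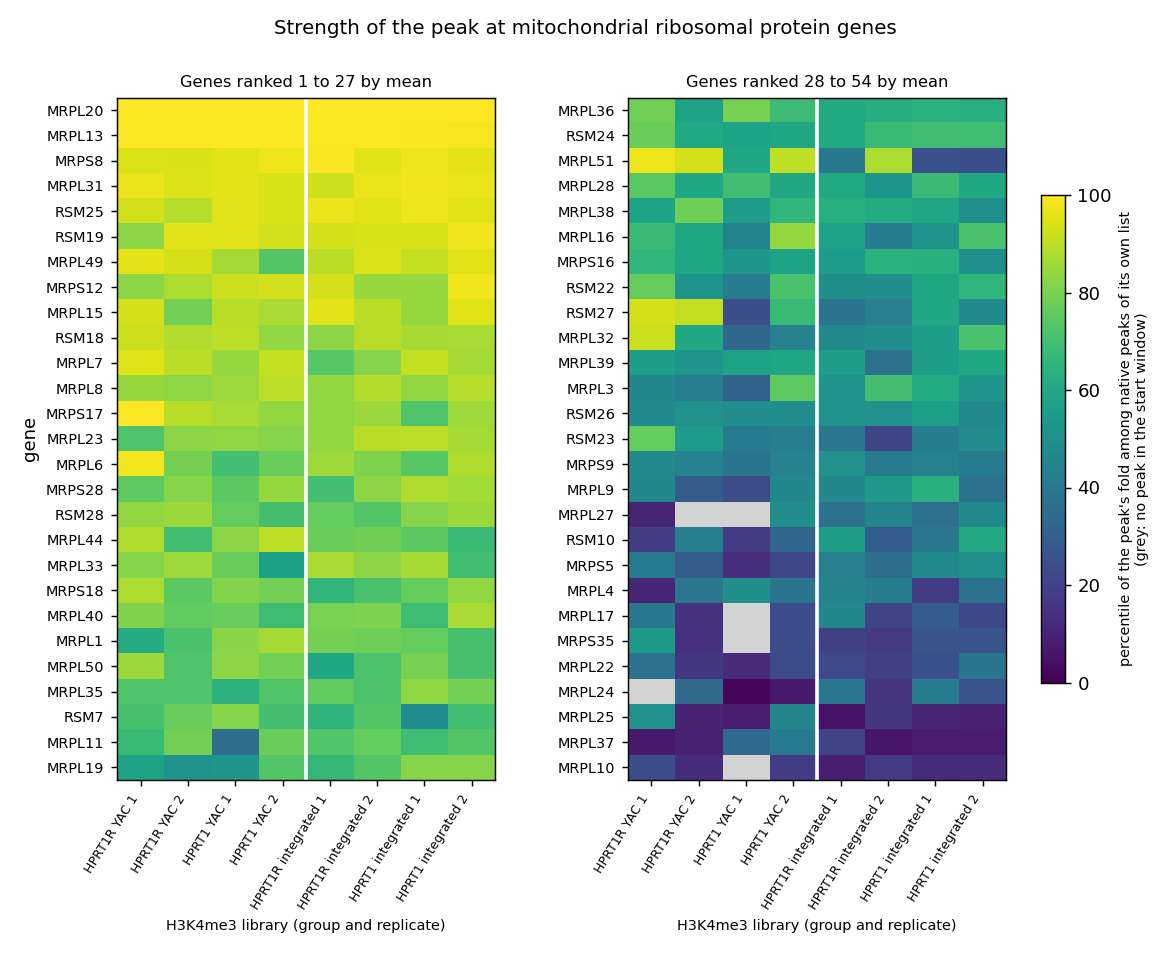
Percentile of the strongest peak at each of the 54 genes (rows, ordered by mean) among nuclear peaks of the same list, in each library (columns, YAC left and integrated right of the white line). Yellow is high, dark blue low and grey a library without a peak in the start window. MRPL20 and MRPL13 lie at 98.7 or above in every library, and the 6 grey cells all belong to YAC libraries.

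The strongest peaks of the set were those at MRPL20 and MRPL13. Both encode large subunit proteins that have no counterpart in bacterial ribosomes, and both lie on chromosome XI. MRPL20 (YKR085C, minus strand, 599094 to 599681) had folds of 3.57 and 4.86 in HPRT1R YAC libraries, 4.31 and 4.54 in HPRT1 YAC libraries, 4.42 and 5.38 in HPRT1R integrated libraries and 5.34 and 4.71 in HPRT1 integrated libraries. The summit pileups behind them were 348 to 452 reads. Its peak was 2044 bp wide on average and reached over the starts of PRP16, which encodes a splicing helicase and begins 176 bp away on the other strand, and HBS1, which acts in the rescue of stalled ribosomes. The summit, however, lay inside MRPL20 in all 8 libraries, 184 to 254 bp past its start, and was nearer to its start than to any other.

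MRPL13 (YKR006C, minus strand, 450423 to 451217) had a fold of 4.48 ± 0.479 (SD, n = 8), with a lowest value of 3.57 in HPRT1R YAC replicate 1 and a highest of 5.11 in HPRT1R YAC replicate 2. The median fold of nuclear peaks was also lowest in HPRT1R YAC replicate 1, at 1.86, and the percentile of MRPL13 there was 99.9. Its summit lay 46 to 62 bp past the start in all 8 libraries. The peak also covered the starts of MEH1, 217 bp away on the other strand, and RSC4, which encodes a subunit of the RSC chromatin remodeller.

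MRPL31, another large subunit gene on chromosome XI (YKL138C, 185286 to 185681), had a mean percentile of 95.8 and shared its peak with CMC1, whose product acts in cytochrome oxidase assembly. Together with MRPL38 (61.2) and RSM22 (58.2), 5 genes of the set lay on chromosome XI, which received the synthetic DNA in the integrated strains. Their median was 95.8, against 66.7 for the 49 genes on other chromosomes, a division made after the values were seen. As a median per library it was 96.2 for these 5. It was 60.9 for the marked genes among all 318 of chromosome XI and 62.3 for all marked genes. At 4 of the 5 the upstream neighbour was divergent, and at 4 the peak reached another start window in all 8 libraries. In the 4 YAC libraries MRPL20 had percentiles of 99.8 to 100, MRPL13 had 99.9 in each and MRPL31 had 94.0 to 97.0. In the integrated libraries the same genes had 99.7 to 100, 98.7 to 99.8 and 92.7 to 97.9. Whether the insert or the neighbours bear on these ranks was not tested.

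In the small subunit the strongest peaks were at MRPS8, RSM25, RSM19 and MRPS12. MRPS8 (chromosome XIII, 572248 to 572715), of the S8 family found in all ribosomes, had a mean percentile of 96.1. Its summit lay 207 to 251 bp upstream of its start in all 8 libraries, beside the start of the divergent gene AIM36, which begins 204 bp away. Its peak was thus high while the summit was nearer to a neighbour.

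RSM19 and MRPS12 are neighbours on chromosome XIV, transcribed in the same direction with starts 505 bp apart. MRPS12 encodes the mitochondrial counterpart of bacterial S12, a protein of the decoding centre, and RSM19 that of S19. In 4 libraries (1 in each group) the same peak was the strongest at both genes and was counted for each. Mean percentiles were 93.2 for RSM19 and 89.5 for MRPS12. In HPRT1R YAC replicate 1 the shared peak was 1717 bp wide and in HPRT1 integrated replicate 2 it was 1411 bp wide, against 527 bp in HPRT1 YAC replicate 2 and 530 bp in HPRT1R integrated replicate 1. In the remaining libraries the strongest peak at RSM19 was a different one, with a summit 309 to 342 bp upstream. That summit lay past the start of DBP6, a divergent gene for a helicase of cytosolic ribosome assembly. The peak was shared with the DBP6 start window.

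RSM25 (chromosome IX, 187990 to 188784) had a mean percentile of 94.5, and MRPL49 (chromosome X, 246490 to 246975), of the bacterial L21 family, had 90.0. At RSM25 the summit lay 235 to 269 bp past the start in 4 libraries and 1272 to 1441 bp past it, beyond the end of the gene, in the other 4. The distant position was seen in HPRT1R YAC replicate 1, HPRT1R integrated replicate 1 and both HPRT1 integrated libraries. At MRPL49 the summit stayed within 55 bp of the start on either side.

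The weakest genes marked in all 8 libraries were MRPL37, MRPL25 and MRPL22, all of the large subunit. MRPL37 (chromosome II, 741299 to 741616) had percentiles of 6.8 and 10.1 in HPRT1R YAC libraries, 34.1 and 40.9 in HPRT1 YAC libraries, 19.9 and 6.0 in HPRT1R integrated libraries and 8.2 and 7.8 in HPRT1 integrated libraries. Both HPRT1 YAC libraries were the highest. Its peak was 356 bp wide on average, the narrowest among genes marked in all 8 libraries, with summit pileups of 154 to 217 reads. MRPL25 had a mean percentile of 19.5 and MRPL22, of the universal L22 family, had 24.2.

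Between these ends, mean percentiles of 75.1 to 89.2 were reached by MRPL15, RSM18, MRPL7, MRPL8, MRPS17, MRPL23, MRPL6, MRPS28, RSM28, MRPL44, MRPL33, MRPS18, MRPL40, MRPL1 and MRPL50. MRPL15 (89.2) had the highest mean of the 16 genes whose peak reached no other start window in any library. Its summit lay 4 to 46 bp past the start, and its upstream neighbour ATG39 runs the other way, with 646 bp between the genes. Means of 50.4 to 74.0 belonged to MRPL35, RSM7, MRPL11, MRPL19, MRPL36, RSM24, MRPL51, MRPL28, MRPL38, MRPL16, MRPS16, RSM22, RSM27, MRPL32, MRPL39, MRPL3 and RSM26. Means of 35.1 to 46.0 belonged to RSM23, a relative of human DAP3, and to MRPS9, MRPL9, RSM10, MRPS5 and MRPL4, of the S9, L3, S10, S5 and L29 families.

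The position of the summit was recorded relative to the start of each gene. The median over the marked genes of the set was 41.5 bp past the start, and it was 41.5 bp over all genes. The median summit lay in the first 500 bp at 31 genes, upstream of the start at 16, and 500 bp or more downstream at 7. These positions were not counted over all genes. The gene's own start was the nearest to the summit in all 8 libraries for 26 genes, in some for 22 and in none for 6. Among genes marked in all 8 libraries, it was the nearest throughout for 53.1% of the set and 51.6% of all genes.

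The 6 genes whose summit was always nearer to another start were MRPS8, RSM19, MRPL44, MRPL36, RSM24 and MRPL32. At MRPL32, whose product is processed by the m-AAA protease, the summit lay 226 to 298 bp upstream, around the start of the septin gene CDC10, which begins 272 bp away. At RSM24 it lay 252 to 335 bp upstream, around the start of NGG1, a subunit gene of the SAGA complex, 300 bp away. At MRPL44 it lay 712 to 911 bp downstream, beyond the end of this 444 bp gene, where MRE11, a gene of DNA break repair, begins 750 bp from the MRPL44 start. These 6 genes were named after their values were seen.

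**Figure D3:**
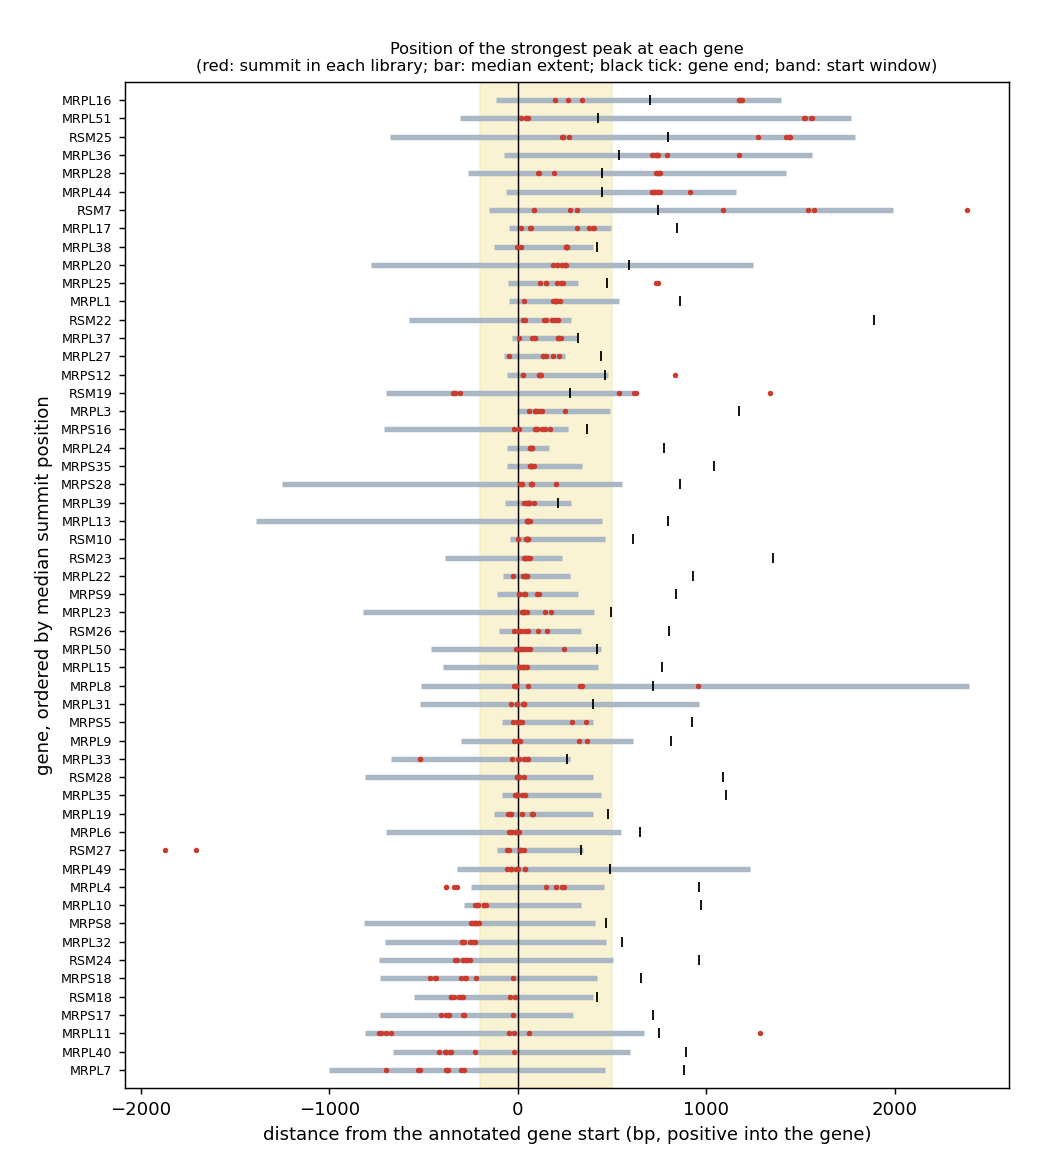
Position of the strongest peak at each of the 54 genes (rows, ordered by median summit) relative to the annotated start, in bp, positive into the gene. Red points are the summits in the single libraries, grey bars the median extent of the peak, black ticks the end of the gene and the shaded band the start window. Most points lie close to 0, while the top 7 rows have their median summit 500 bp or more downstream and the bottom rows hold genes with summits mainly upstream.

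Several genes kept the same call while the peak behind it changed shape. MRPL51 (chromosome XVI, 729791 to 730213) lay under a peak of 3428 and 3480 bp in the HPRT1R YAC libraries and of 690 and 3496 bp in the HPRT1 YAC libraries. In the integrated libraries it was 565 and 3488 bp for HPRT1R and 692 and 1061 bp for HPRT1. The wide form had its summit 1517 to 1557 bp past the MRPL51 start and reached SNT309, RPL11A and PRE2, which serve splicing, the cytosolic ribosome and the proteasome. The narrow form had its summit 17 to 56 bp past the start. The percentile was 87.6 to 97.5 in the libraries with the wide form and 24.2 to 59.6 in the others, so a high rank here was the rank of the merged peak.

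RSM27 also had a wide and a narrow form. In both HPRT1R YAC libraries its peak was 2380 and 2397 bp wide, with summits 1707 and 1871 bp upstream. They lay before the start of the neighbouring cytosolic ribosomal gene RPS0A, which begins 1600 bp upstream of RSM27. In the other 6 libraries it was 392 to 463 bp wide, with a summit within 57 bp of the RSM27 start. Percentiles were 93.7 and 90.8 in the HPRT1R YAC libraries and 24.0 to 67.2 elsewhere. RSM27 was singled out after its values were seen.

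The widest peaks on average were those at MRPL8 (3042 bp), RSM7 (2142 bp) and MRPL51 (2112 bp). The peak at MRPL8, of the bacterial L17 family, was wide in all libraries, 2896 to 3433 bp, and covered 5 start windows, among them those of COA3, a cytochrome oxidase assembly gene, and MPM1. That at RSM7, of the universal S7 family, was 799 to 3490 bp wide. Among genes marked in all 8 libraries the narrowest were those at MRPL37 (356 bp), RSM26 (426 bp) and MRPS9 (432 bp). MRPL24 (295 bp) and MRPS35 (351 bp), which were marked in 7, had narrower peaks where called. RSM26, related to superoxide dismutase, had percentiles of 47.6 to 56.3.

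All 5 genes that lacked a peak in some library lacked it in YAC libraries. MRPL27 had no peak in HPRT1R YAC replicate 2, where the nearest peak was 1036 bp downstream of the window, and in HPRT1 YAC replicate 1, where it was 378 bp upstream of it. MRPL17, MRPS35 and MRPL10 had none in HPRT1 YAC replicate 1, with the nearest peak 1076 bp upstream, 888 bp upstream and 1398 bp downstream. MRPL24 had none in HPRT1R YAC replicate 1, with the nearest peak 163 bp downstream of the window. Where a peak was called, these 5 were weak, with mean percentiles of 37.8 for MRPL27, 28.0 for MRPL17, 25.8 for MRPS35, 23.7 for MRPL24 and 15.0 for MRPL10. A missing call says that no peak passed the caller's threshold at this depth, not that the mark was absent.

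The first comparison set YAC against integrated strains. Per library, 97.2% ± 3.21 of the set were marked in YAC libraries and 100% ± 0 in integrated libraries (SD, n = 4 each), while for all genes it was 76.5% ± 1.56 in YAC libraries and 78.5% ± 1.22 in integrated libraries. The 5 genes above were marked in fewer than 4 YAC libraries and in all 4 integrated libraries, with a background of 6.6% of all genes. The reverse pattern was found at 0 genes of the set and 1.83% of all genes. None of the set was marked in all 4 YAC and no integrated library (background 0.15%) or in no YAC and all 4 integrated libraries (background 0.3%). By the summit rule these counts were 0 and 0 as well (backgrounds 0.233% and 0.183%), and the share of the set was 57.9% ± 6.12 in YAC libraries and 57.9% ± 7.31 in integrated libraries (SD, n = 4 each). With 4 libraries against 4, an exact two-sided permutation test of a single gene cannot go below p = 0.0286.

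The extent of the mark was compared as the percent of the 700 bp start window that lay under peaks. Averaged over the 54 genes it was 77.3% and 77.2% in HPRT1R YAC, 68.1% and 80.8% in HPRT1 YAC, 75.9% and 77.5% in HPRT1R integrated and 81.8% and 83.1% in HPRT1 integrated libraries. Over all genes it was 51.5% to 59.4%, and HPRT1 YAC replicate 1 had the lowest value of both. The test used limma over the 4777 genes whose value varied between libraries, with Benjamini-Hochberg adjustment over all of them and a threshold of 0.05. Of the set, 51 genes entered, since MRPL20, MRPL8 and RSM25 were covered over the whole window in all 8 libraries. Between YAC and integrated strains 0 of the 51 passed, where 1.47% of all genes did. The 14 genes that were higher in YAC strains were 0.293% of all and the 56 that were lower were 1.17%. At an unadjusted p under 0.05 it was 3 of 51, against 10.2% of all genes. The median difference was -2.5 percentage points for the set and -2.71 for all genes, with 17 of the set higher and 33 lower in YAC strains.

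The largest difference was at MRPS35, a small subunit gene (chromosome VII, 829116 to 830153). Its start window was covered to 43.6% and 30.4% in the HPRT1R YAC libraries and to 0% and 28.4% in the HPRT1 YAC libraries. In the integrated libraries it was 57.3% and 60.9% for HPRT1R and 65.0% and 65.0% for HPRT1. All YAC values lay below all integrated values. The same held at MRPS9, with 56.1% to 60.4% in YAC libraries and 62.1% to 67.4% in integrated libraries. How many of all genes were separated in this way was not counted. At MRPS35 the difference of -36.4 points (SE 7.13) did not pass the limma threshold over all genes (adjusted p = 0.125).

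At MRPL27 (chromosome II, 768240 to 768680) the window was covered to 35.3% and 0% in HPRT1R YAC, 0% and 39.9% in HPRT1 YAC, 34.9% and 45.9% in HPRT1R integrated and 49.9% and 88.7% in HPRT1 integrated libraries. The groups overlapped, and the difference of -36.0 points (SE 14.7) did not pass (limma, adjusted p = 0.512). MRPL17 followed with 55.4% ± 37.3 in YAC libraries and 79.0% ± 5.85 in integrated libraries, and MRPL10 with 54.7% ± 40.6 in YAC libraries and 76.3% ± 0.481 in integrated libraries (SD, n = 4 each). In both genes the low YAC mean rested on the value of 0% in HPRT1 YAC replicate 1. Their adjusted limma p-values were 0.744 and 0.745.

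Which genes of the set passed depended on single libraries. Without HPRT1R YAC replicate 1 MRPL6 passed, without HPRT1R YAC replicate 2 there were 6 genes (MRPS5, RSM10, MRPS28, RSM28, MRPS12 and RSM19), and without HPRT1 YAC replicate 2 there were 2 (MRPS35 and MRPL17). The count over all genes then stood at 130 of 4643, 523 of 4760 and 220 of 4751, in place of 70 of 4777. In these fits the library left alone in its group is assumed to vary like the others.

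**Figure D4:**
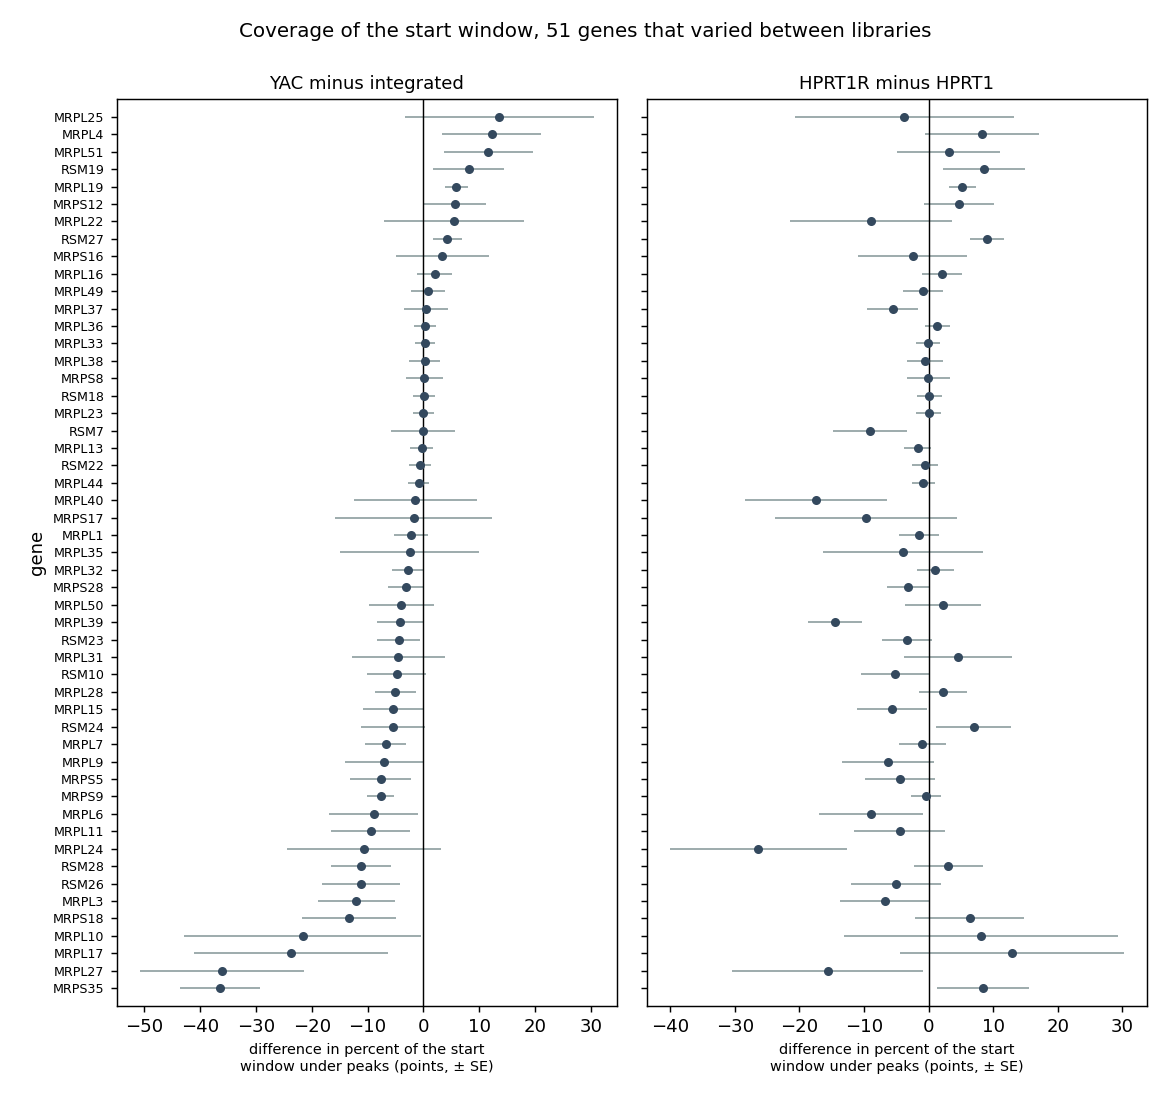
Difference in the percent of the start window under peaks for the 51 genes whose value varied, as YAC minus integrated (left) and HPRT1R minus HPRT1 (right), in percentage points. Points are limma estimates and bars 1 standard error. On the left 17 points lie above 0 and 33 below it, and MRPS35 and MRPL27 at the bottom are the farthest below, at -36.4 and -36.0.

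The second comparison set strains with HPRT1R against strains with HPRT1. Per library, 99.1% ± 1.07 of the set were marked with HPRT1R and 98.1% ± 3.70 with HPRT1 (SD, n = 4 each), while for all genes it was 76.9% ± 0.948 with HPRT1R and 78.1% ± 2.16 with HPRT1. No gene of the set, and 0% of all genes, was marked in all libraries of one sequence and in none of the other. In the start window 0 of 51 genes passed in limma, where 0.23% of all genes did. The 2 that were higher with HPRT1R were 0.0419% of all genes and the 9 that were lower were 0.188%. At an unadjusted p under 0.05 there were 2, against 4.96% of all genes. The median difference was -0.821 points for the set and -1.36 for all genes.

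The 4 largest differences were at large subunit genes. MRPL24, of the bacterial L28 family, was covered to 23.0% ± 16.1 with HPRT1R and 49.3% ± 21.6 with HPRT1 (SD, n = 4 each), a difference of -26.3 points (limma, adjusted p = 0.928). MRPL40 differed by -17.5 points, MRPL27 by -15.6 and MRPL39 by -14.4. MRPL39, the shortest gene of the set at 213 bp, was covered to 51.7% and 50.6% in HPRT1R YAC and 49.3% and 48.6% in HPRT1R integrated libraries, against 67.7% and 50.6% in HPRT1 YAC and 70.3% and 69.3% in HPRT1 integrated libraries. The values of the sequences overlapped at 50.6% to 51.7%, and the adjusted p was 0.610 in limma. Without HPRT1R YAC replicate 2 there were 4 genes that passed (MRPS5, RSM10, MRPS28 and RSM19), without HPRT1R YAC replicate 1 there was MRPL6, and without HPRT1 YAC replicate 2 there was MRPL39. Over all genes these fits called 388 of 4760, 35 of 4643 and 92 of 4751.

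By the summit rule 1 gene of the set divided the sequences. At MRPL19, of the universal L11 family (chromosome XIV, 292193 to 292669), the summit lay 20 and 81 bp past the start in the HPRT1R YAC libraries and 73 and 73 bp past it in the HPRT1R integrated libraries. It lay 38 and 54 bp upstream in the HPRT1 YAC libraries and 44 and 36 bp upstream in the HPRT1 integrated libraries. The 4 values of each sequence did not overlap, and the summit rule therefore held in 4 of 4 HPRT1R and 0 of 4 HPRT1 libraries, as it did for 0.05% of all genes. The reverse was found at 0 genes of the set and 0.0333% of all genes. The peak itself was called in all 8 libraries, with percentiles of 51.3 to 73.1 with HPRT1R and 52.0 to 81.8 with HPRT1. MRPL19 was singled out after its values were seen, and its start overlaps the reading frame YNL184C.

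Other genes of mitochondrial translation were taken from lists by function. Of 26 mitoribosomal genes with other kinds of symbol, 24 were marked in all 8 libraries. The strongest were MNP1, for the counterpart of bacterial L7/L12, with a mean percentile of 95.5, and RTC6, for that of L36, with 91.0. MRP51 was marked in 7 libraries and PPE1, which also encodes a protein methylesterase, in 5. All 6 genes for assembly of the mitochondrial ribosome were marked in all 8 libraries, led by GEP3 (99.4), a GTPase-like protein, and MRM1 (86.3), a methyltransferase for the large ribosomal RNA.

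The remaining lists had shares marked in all 8 libraries near the 66.5% of all genes. Of 13 mitochondrial aminoacyl-tRNA synthetase genes 9 (69.2%) were marked in all 8, MSD1 (96.6) and MSM1 (84.0) being the strongest. SLM5 and MST1 were marked in 7, DIA4 in 4 and MSF1 in 0. Of 6 translation factor genes 4 (66.7%) were marked in all 8, with TUF1 for the elongation factor Tu at 68.7 and MEF1 for elongation factor G at 61.3. IFM1, for the initiation factor, was marked in 6 libraries and RRF1, for the recycling factor, in 0. Of 12 genes for activators that promote translation of single mitochondrial messages 8 (66.7%) were marked in all 8, led by PET122 (90.6) and PET309 (81.4). CBP6 was marked in 6, AEP2 and CBS1 in 5 and PET111 in 1.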

How the data were processed

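Native H3K4me3 peaks of 8 yeast libraries were assigned to genes. The submitters' processing notes name the sacCer3 build and, in no stated order, MACS2 2.1.0, deepTools 3.5.0, SAMtools 1.9, Bowtie2 2.2.9 and bcl2fastq 2.20 as the authors' tools. Whether IgG was the caller's control, and its settings: not given in the sources used here. For each peak the authors deposited an interval, a summit, a fold (a ratio of observed to expected pileup), p-values and q-values as −log10, and a score. Ranks were taken within a list. Folds of different lists share no common scale, so their means and ranges over libraries are descriptive only. The whole-number pileup at each summit was solved for from fold and p-value, which matched within 0.001 in at least 99.3% of peaks of each library. No pileup is given for a peak that missed by 0.01 or more, and the expected pileup is the 10th percentile over native peaks. Precision read from pileups covers counting error only.

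Gene positions came from the RefSeq table of R64, with strand from the systematic names. Of 6021 protein-coding entries, 19 that are not on nuclear chromosomes were left out. Lengths are genomic spans from start to stop codon, any intron included. They were multiples of 3 at 96.4% of all genes and at 54 of 54 of the set. Marked means an overlap of at least 1 bp. Where several peaks met a window, as at 5 genes of the set in at least 1 library, the one with the highest fold stood for the gene. Window coverage was tested with limma 3.58.1 in R 4.3.3, with 1 mean for each of 4 groups. The code was checked on simulated data. Other steps used Python 3.11.15, pandas 2.3.3 and scipy 1.17.1.

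Genes were named by rule: the 8 strongest and 3 weakest marked in all libraries, those marked in some or none, the 4 largest coverage differences per comparison, and the 3 widest and 3 narrowest peaks, 23 genes in all. Others were chosen after their values were seen. The genes and lists were chosen with earlier results of these data known. No sequence or promoter motif is reported here. Alternatives covered window, overlap, peak threshold, equal peak numbers, gene filter, scaling, variance model, replicate block, measure of strength and each library left out.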

Additional observations from a re-analysis of the deposited data

Results flagged for a closer look

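A value was singled out where 1 library stood far from the others by Dixon's test over the libraries with a value. Of 28 values examined, 8 were singled out. Among the 28 were percentiles of the 23 genes named by rule, most of them picked by their values in these same libraries. The libraries also came from 4 groups. The usual rate of 1 in 20 by chance is therefore no yardstick for this count. The share of the set marked was 92.6% in HPRT1 YAC replicate 1, against 98.1% to 100% in the other 7 libraries.

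The other 7 values are percentiles of single genes. In HPRT1R YAC replicate 1, RSM19 stood at 82.6 (others 93.1 to 97.9), MRPL27 at 10.4 (others 36.6 to 49.2) and MRPS35 at 54.2 (others 14.1 to 26.2). That library had the fewest peaks and the highest expected pileup, 98.9 reads. MRPL49 stood at 73.1 in HPRT1 YAC replicate 2 (others 86.6 to 95.8). MRPL13 stood at 98.7 in HPRT1 integrated replicate 2 (others 99.6 to 99.9), which is a small step near the top of the scale. MRPL39 stood at 37.0 in HPRT1R integrated replicate 2 (others 52.2 to 60.0). RSM26 stood at 56.3 in HPRT1 integrated replicate 1 (others 47.6 to 51.3). The part of depth or peak number in these values was not tested.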

How the results depend on the processing

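Of 166 recomputed values, 132 stayed within the spread between libraries or, for counts, within 1.5 times, and 34 moved. Changes of sign were not counted apart. Marking moved with the summit rule, which gave 12 genes marked in all 8 libraries, 10 in none, a median share of 58.3%, a YAC minus integrated difference of 0 points and 1 gene that divided the sequences (the last alternative was chosen after seeing the data). Genes with a start window of their own gave 28 marked in all and a median percentile of 58.9. Without each library in turn, 49 to 52 genes were marked in all, the YAC minus integrated share was -4.63 to -0.926 points and the HPRT1R minus HPRT1 share was -0.926 to 2.78 points. The HPRT1R minus HPRT1 share changed sign, from 0.926 points with all libraries to -0.926 points without HPRT1 YAC replicate 1.

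Counts from limma moved with several settings. Genes called between YAC and integrated strains numbered 70, and 43 with scaled coverage, with 54 to 523 over left-out libraries. For HPRT1R against HPRT1 the count of 11 became 17 with the 500 bp window, 25 with peaks at −log10 q of at least 5, 47 with equal peak numbers, 43 without the gene filter, 5 with a robust variance model, 2 with scaled coverage and 0 to 388 over left-out libraries. Genes of the set called numbered 1 without the gene filter (MRPL44, between YAC and integrated strains, where 93 of 6002 genes were called), and over left-out libraries 0 to 6 between YAC and integrated strains and 0 to 4 between sequences. At MRPL44 the difference was -0.893 points, with an adjusted p of 0.885 in the main limma fit. The cause of the moved counts was not tested.

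With the replicate number as a block, limma called 27 genes between YAC and integrated strains and 0 between sequences, where 228 had an unadjusted p under 0.05. Deviations of same-numbered libraries from their group means correlated at -0.176 to 0.135 between groups, which gives no sign that the numbers pair them.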
